A study of Mus musculus with 14 samples.

Results

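The nuclear subunits of oxidative phosphorylation were 81 of the 35275 genes counted in mouse carotid artery. They were chosen by gene type and symbol: protein-coding genes named Nduf, Uqcr, Cox or Atp5 in the subunit style, with Cyc1 and Cycs. Cox7a1, whose symbol fits this pattern, was left out by name. They comprised 37 genes of complex I, 9 of complex III, cytochrome c, 17 of complex IV and 17 of complex V. Oxidative phosphorylation passes electrons from NADH through complexes I and III, cytochrome c and complex IV to oxygen, and complex V (ATP synthase) uses the proton gradient so made to form ATP. Most subunits are encoded in the nucleus and join a small core encoded in mitochondrial DNA. Endothelial cells are known to draw much of their ATP from glycolysis, and some complex IV subunits exist as paralogs that differ by tissue or respond to oxygen.

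Carotid arteries of C57BL/6 mice, 10 weeks old and on standard chow, were flushed with 150 µL of Qiazol, a phenol-based lysis reagent, to collect RNA enriched for endothelium. The remaining vessel wall, mainly media and adventitia, gave a further RNA sample. The flushed RNA came from 4 littermate controls (Poldip2-floxed) and 4 endothelial knockouts (Poldip2-EC-/-), while the left-over RNA comprised 2 libraries with the control label (Poldip2-floxed) and 4 with the smooth muscle knockout label (Poldip2-SMC-/-). Poldip2 encodes a partner of DNA polymerase delta that is also found in mitochondria. The Cre driver behind each knockout, and whether arteries of several animals were pooled, are not stated in the labels. The design text gives 4 knockout mice and 4 littermate controls, but no source ties a library to an animal, so p-values measure only the spread between these libraries, which may be technical.

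The labels of the left-over libraries are in doubt. Poldip2 itself, the targeted gene, fell short of a call in the flushed knockouts in the edgeR fit made here. Its log2 fold change against control was -0.89 (SE 0.16, edgeR adjusted p = 0.270). Its groups did not overlap, at 21.5 to 36.5 against 43.7 to 59.8 CPM, the counts scaled to library size. The two-sided exact permutation p was 0.0286, the smallest the design allows. The authors' deposited result for the same comparison was under 0.05, with a log2 fold change of -0.70 (authors' adjusted p = 0.00055, test not stated). In the left-over artery the libraries labelled knockout exceeded those labelled control, by a log2 difference of 1.29 (SE 0.20, edgeR adjusted p = 0.00886; exact permutation p = 0.0667, the smallest 2 against 4 libraries can give). In the authors' deposited table, the mean given for smooth muscle control equals that of the 4 left-over libraries labelled knockout, and the mean given for smooth muscle knockout equals that of neither left-over group. Of the former's library code numbers, 3 also occur among the flushed controls. With the labels of the 6 left-over libraries exchanged, each direction in their comparison would be the opposite. The flushed fraction was therefore compared with each left-over group in turn.

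Depth ran from 15019891 to 23287155 counts per library. Summed over 10 endothelial markers (Pecam1, Cdh5 and others), the flushed libraries held 16075 to 19021 CPM and the left-over libraries 267 to 1151 CPM. Smooth muscle markers (Acta2, Myh11 and others) summed to 309 to 757 CPM in the flushed and 8589 to 11047 CPM in the left-over libraries, and fibroblast markers to 1367 to 5108 CPM against 29357 to 42646 CPM. None of these 30 markers was at 0 in any group, so the fractions differ in the levels of these markers and not in their presence. The cell types therefore change with the fraction, and in bulk RNA fewer cells of a type cannot be told apart from less RNA per cell.

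Promoter sequences are shown for 2 paralog sets, chosen after their values were seen as those with the largest shifts in share between flushed and left-over artery among the sets with a window for the common and the alternative gene: Atp5g2 and Atp5g3 of ATP synthase, and Cox8a and Cox8b of complex IV. Each is the RefSeq window of GRCm38.p6, from 250 bases before to 50 bases after the transcript start, on the gene's strand. The windows are chr15:102670998-102671297 and chr2:73911277-73911576 for the Atp5g genes, and chr19:7217567-7217866 and chr7:140900397-140900696 for the Cox8 genes, all on the minus strand. Capitals mark a match to the motif of nuclear respiratory factor NRF1 or to the ETS motif CCGGAAGT (the kind bound by GABP), searched on both strands along with the YY1 motif.
Atp5g2: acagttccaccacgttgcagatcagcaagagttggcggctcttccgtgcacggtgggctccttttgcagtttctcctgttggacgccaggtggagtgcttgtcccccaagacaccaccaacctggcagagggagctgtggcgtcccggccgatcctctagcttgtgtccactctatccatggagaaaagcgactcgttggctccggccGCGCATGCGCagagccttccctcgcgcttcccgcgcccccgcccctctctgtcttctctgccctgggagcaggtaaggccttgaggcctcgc
Atp5g3: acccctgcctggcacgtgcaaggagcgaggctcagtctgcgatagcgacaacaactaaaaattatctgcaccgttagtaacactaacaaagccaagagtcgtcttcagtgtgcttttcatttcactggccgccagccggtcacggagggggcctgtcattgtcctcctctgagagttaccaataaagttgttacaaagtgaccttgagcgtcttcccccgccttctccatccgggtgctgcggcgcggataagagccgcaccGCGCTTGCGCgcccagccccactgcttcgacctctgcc
Cox8a: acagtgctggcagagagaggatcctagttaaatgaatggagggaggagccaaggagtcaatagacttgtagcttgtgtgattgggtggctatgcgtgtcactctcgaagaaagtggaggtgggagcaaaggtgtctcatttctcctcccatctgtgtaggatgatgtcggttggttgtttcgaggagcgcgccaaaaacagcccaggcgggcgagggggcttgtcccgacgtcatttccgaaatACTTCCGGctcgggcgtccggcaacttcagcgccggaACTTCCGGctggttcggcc
Cox8b: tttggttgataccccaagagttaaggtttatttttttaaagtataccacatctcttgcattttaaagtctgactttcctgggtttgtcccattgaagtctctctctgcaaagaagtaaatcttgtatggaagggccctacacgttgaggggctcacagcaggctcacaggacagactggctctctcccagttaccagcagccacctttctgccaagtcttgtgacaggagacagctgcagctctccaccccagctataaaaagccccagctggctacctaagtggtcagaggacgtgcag

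The NRF1 match lies 42 bases before the start in Atp5g2 and begins 12 bases after it in Atp5g3. Cox8a, the widely expressed paralog, holds the ETS motif on its opposite strand at -6 and at 31 bases from the start, and the Cox8b window holds none of these 3 motifs. The hypoxia-inducible factor core ACGTGC lies at 42 in Cox8b and at -239 and -237 in Atp5g3, where it overlaps an E-box at -238. A window was given for 66 of the 81 genes. The NRF1 motif was in 15 of them (22.7%, against 5.19% of 27025 genes), the YY1 motif in 7 (10.6%, against 1.59%) and the ETS motif in 5 (7.58%, against 4.31%). The other 3 motifs searched were the hypoxia-inducible factor core ACGTGC (4 genes, 6.06% against 6.68%), the E-box CACGTG (7 genes, 10.6% against 8.09%) and the MEF2 motif (0 genes, against 1.93%). The first and second of these 3 can overlap each other. These are matches of letters, not evidence of binding.

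Levels are given as scaled FPKM, TMM-scaled CPM over all 14 libraries divided by the deposited gene length in kilobases. Averaged over the 4 groups, the subunits ran from 0.295 scaled FPKM for Cox6a2 to 523 for Atp5b, the catalytic beta subunit of ATP synthase. Highest within its complex were Ndufa4 of the complex I set at 355.5 (a protein now also placed in complex IV), Uqcr11 of complex III at 259 and Cox6a1 of complex IV at 350. Lowest were Ndufb2 of complex I at 4.53, Uqcrc2 (a core protein) of complex III at 56.9, Cox6a2 and Atp5s, known as coupling factor B, at 8.08. Cycs, the mobile electron carrier, averaged 24.7. For 11 genes, among them Ndufb7, Ndufs1, Uqcrq and Atp5s, the deposited length was over 2 times the median of the annotated coding transcripts. Their FPKM would be too low if the shorter transcripts were those expressed, which was not tested.

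Together the 81 genes held less of the flushed than of the left-over RNA. Their summed level was 7462, 7109, 7345 and 7645 CPM in the flushed controls, and 8621, 8014, 7488 and 7448 CPM in the flushed knockouts. It was 11324 and 9119 CPM in the left-over libraries labelled control, and 10161, 8774, 10072 and 9961 CPM in those labelled knockout. Each left-over library lay above each flushed one. By complex, the flushed controls and the left-over libraries labelled knockout held 2365 ± 78.8 and 3383 ± 214 CPM for complex I (SD, n = 4 each), and 995 ± 33.0 and 1265 ± 89.9 CPM for complex III (SD, n = 4 each). For complex IV they held 1200 ± 22.0 and 1584 ± 142 CPM, and for complex V 2778 ± 98.9 and 3405 ± 253 CPM (SD, n = 4 each).

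**Figure D1:**
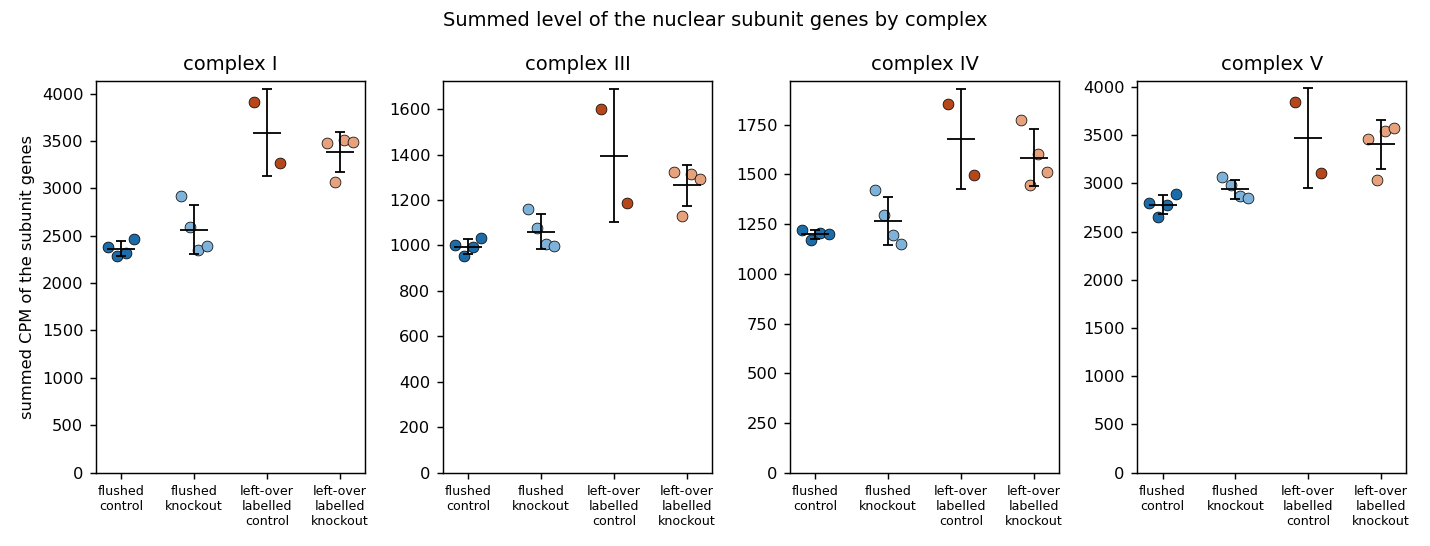
Summed CPM (TMM-scaled, axis from 0) of the subunit genes of complexes I, III, IV and V in each of 14 libraries, by group. Points are libraries, horizontal marks are group means and bars are 1 SD. The left-over libraries stand above the flushed controls in every panel, with labelled control 1 highest.

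Flushed against left-over RNA was compared gene by gene. Against the left-over libraries labelled control, 64 of the 78 subunits tested were lower in the flushed controls and 2 were higher at an edgeR adjusted p under 0.05. Of all 18484 genes tested, 65.7% were called, 31.1% as lower and 34.6% as higher. The median log2 fold change (flushed minus left-over) was -0.65 over the subunits and -0.05 over all genes. Against the 4 left-over libraries labelled knockout, 62 of 78 were lower and 3 higher, where 75% of 17881 genes were called, 38% lower and 36.9% higher. There the medians were -0.59 for the subunits and -0.05 for all genes. Both comparisons use the same flushed controls, so they are not independent, and the left-over library labelled control 1 had the highest subunit levels of its fraction. Without it 50 of 79 subunits were lower and 2 higher, with a median of -0.46. In that fit 4121 of 20130 genes were lower and 5742 higher, with a median of -0.15. Scaling by library size alone, which moves the median of all genes to -0.38 and -0.42, left 38.0% and 35.5% of all calls as higher, against 52.6% and 49.3% with TMM. The subunits' medians were then -0.98 and -0.96.

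**Figure D2:**
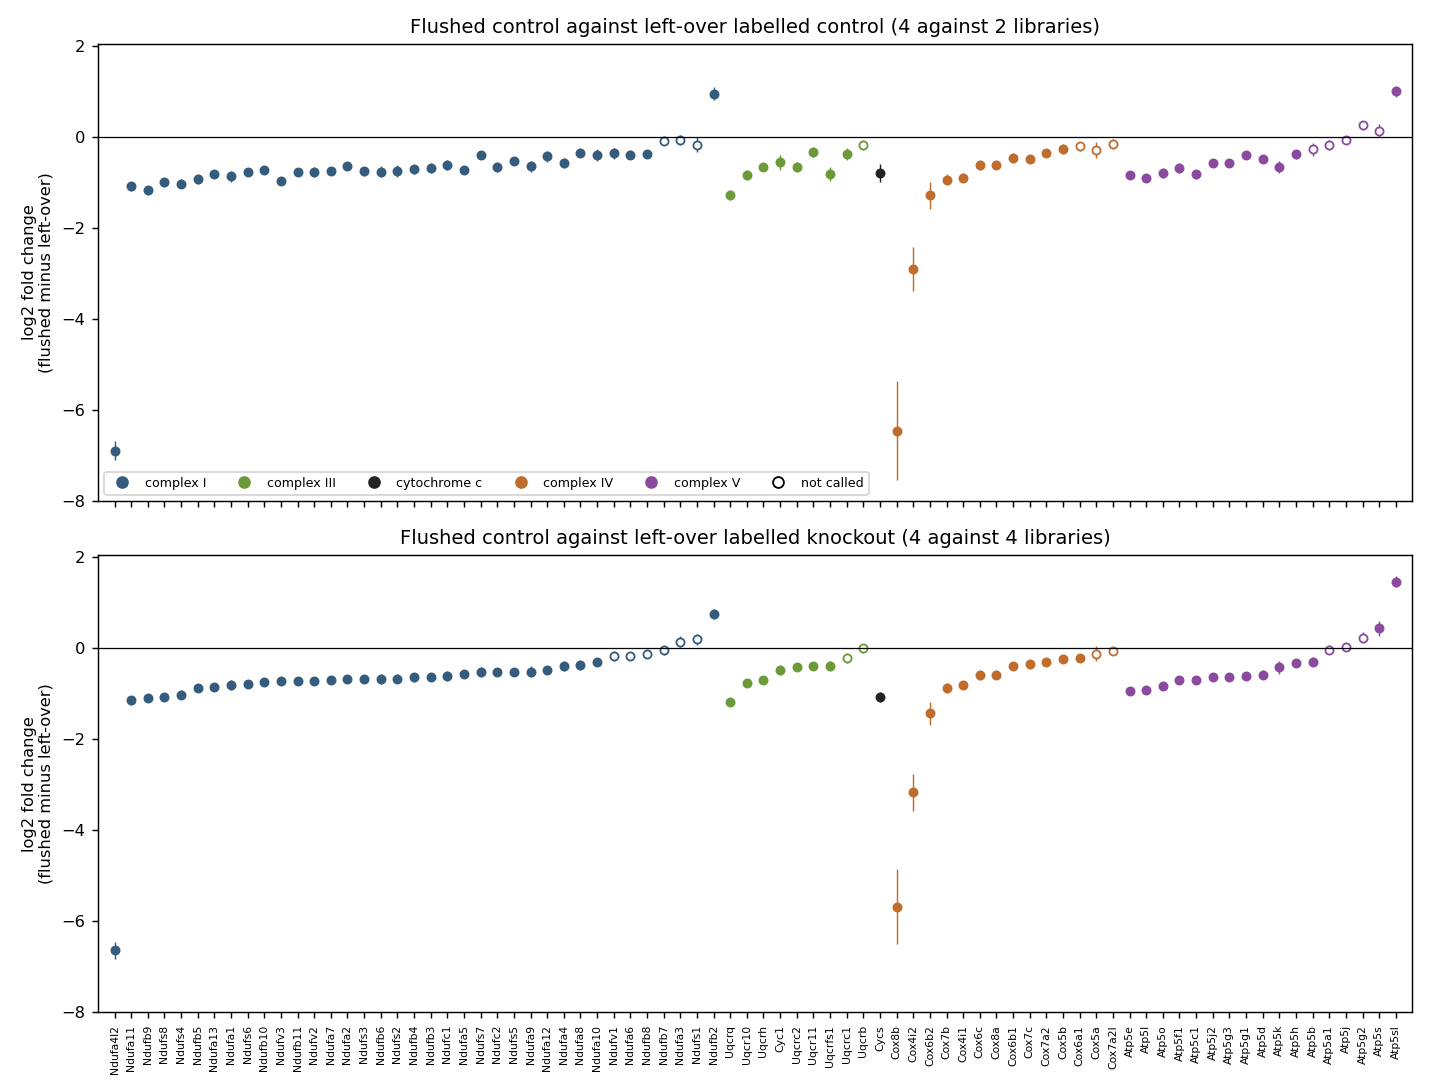
Log2 fold change (flushed control minus left-over) of the 78 subunit genes tested, ordered by complex and by the lower panel, against the left-over libraries labelled control (upper) and labelled knockout (lower). Bars are 1 standard error, filled points passed an edgeR adjusted p under 0.05. Most points lie between -1.3 and 0, Ndufa4l2 and Cox8b lie below -5, and Atp5sl and Ndufb2 lie above 0 in both panels.

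All 4 complexes held genes that were lower. For complex I, 33 of 37 genes were lower and 1 higher against the labelled control libraries (median -0.71), and 30 lower and 1 higher against those labelled knockout (median -0.65). Among them were Ndufb9, an accessory subunit of the membrane arm (-1.18 and -1.11 on the log2 scale), and Ndufs4, needed for stable assembly of the complex (-1.03 and -1.02). For complex III, 8 and 7 of 9 genes were lower (medians -0.65 and -0.41). Uqcrq, a small subunit beside cytochrome b, had 39.8, 36.0, 38.7 and 37.4 scaled FPKM in the flushed controls, 101 and 74.3 in the 2 labelled control and 84.3, 73.4, 87.5 and 82.0 in the 4 labelled knockout libraries of the left-over artery. The flushed controls did not overlap either left-over group, and Uqcrq was 2.43-fold lower in them than in the former (log2 -1.28, SE 0.12, edgeR adjusted p = 1.7e-05) and 2.30-fold lower than in the latter (-1.20, SE 0.08, adjusted p = 2.4e-07).

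Cycs, single between the complexes, had 19.2, 15.7, 16.3 and 17.2 scaled FPKM in the flushed controls. It had 36.6 and 20.1 in the labelled control libraries and 40.3, 31.5, 33.6 and 29.6 in those labelled knockout. Its log2 fold change was -0.79 (SE 0.21, edgeR adjusted p = 0.0113) and -1.07 (SE 0.11, adjusted p = 7.1e-06). Once labelled control 1 was left out, the former was -0.29 and no longer called (edgeR adjusted p = 0.106).

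Complex IV had 11 and 12 of 14 tested genes lower (medians -0.55 and -0.49). Complex V had 11 and 12 of 17 lower with 1 and 2 higher (medians -0.48 and -0.59). The complex V genes called higher were Atp5sl in both comparisons and Atp5s in the latter only. Cox4i1, the common subunit IV, was 1.86-fold and 1.76-fold lower in the flushed controls. Atp5e and Atp5l, small subunits of the ATP synthase stalk and membrane part, had log2 fold changes of -0.84 and -0.91 against the libraries labelled control, and of -0.95 and -0.92 against the others. Atp5b, the most abundant subunit, had 482, 450, 482 and 508 scaled FPKM in the flushed controls against 656 and 452, and against 542, 470, 610 and 605. Its groups overlapped, with log2 fold changes of -0.27 (SE 0.14, edgeR adjusted p = 0.120) and -0.30 (SE 0.10, adjusted p = 0.0186), and the latter call was lost under 11 of the alternatives tried. Without labelled control 2 the former was called (-0.48, edgeR adjusted p = 0.0121). Against the labelled control libraries 12 tested subunits were not called. These were Ndufa3, Ndufb7, Ndufs1, Uqcrb, Cox5a, Cox6a1, Cox7a2l, Atp5a1, Atp5b, Atp5g2, Atp5j and Atp5s, with log2 fold changes from -0.29 to 0.25.

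Few subunits were higher in the flushed controls. Atp5sl, a paralog of coupling factor B that is known from human cells as an assembly protein of complex I, had 12.4, 12.1, 14.1 and 13.2 scaled FPKM there, 5.97 and 6.35 in the libraries labelled control and 3.85, 4.74, 3.96 and 5.11 in those labelled knockout. Flushed and left-over libraries did not overlap. The difference was 2.00-fold (log2 1.00, SE 0.12, edgeR adjusted p = 7.6e-05) and 2.75-fold (log2 1.46, SE 0.13, adjusted p = 1.3e-06). Atp5sl lies on chromosome 7 from 25619414 to 25625551, + strand, in the GRCm38 coordinates of the deposited table.

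Ndufb2, an accessory subunit of the complex I membrane arm, had 5.56, 6.45, 5.84 and 6.11 scaled FPKM in the flushed controls against 3.40 and 2.52, and against 3.80, 3.39, 3.19 and 3.02. Its log2 fold change was 0.95 (SE 0.15, edgeR adjusted p = 0.000472) and 0.75 (SE 0.12, adjusted p = 0.000151). In GENCODE M21 its exons share 145 bases with another gene of the same strand, Gm42420, and 146 bases with Braf on the opposite strand. Exons on the same strand are also shared by Ndufb9 (201 bases, with Gm49356), Ndufb8 (134 bases), Atp5g2 (75 bases, with a miRNA gene) and Atp5o (243 bases, with another entry of its name). Whether reads were counted by strand is not stated in the labels, and the origin of the reads of these genes is uncertain. Atp5s passed against the libraries labelled knockout (log2 0.43, SE 0.17, edgeR adjusted p = 0.0363) and not against those labelled control (0.13, SE 0.14, adjusted p = 0.418), where library-size scaling gave -0.20. The former call was lost under 7 of the alternatives.

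The largest differences were in paralogs that stand in for a common subunit. Ndufa4l2, a paralog of Ndufa4 that hypoxia-inducible factor is known to induce, had 6, 5, 5 and 12 counts in the flushed controls and 56, 3, 5 and 1 in the flushed knockouts. It had 972 and 995 counts in the left-over libraries labelled control and 750, 696, 763 and 824 in those labelled knockout. It was 119-fold lower in flushed control RNA than in the former (log2 -6.90, SE 0.21, edgeR adjusted p = 1.3e-07) and 100.2-fold lower than in the latter (-6.65, SE 0.19, adjusted p = 3.0e-09). Ndufa4 itself, at 295, 288, 313 and 305 scaled FPKM in the flushed controls, differed far less, by -0.57 (SE 0.11, edgeR adjusted p = 0.00192) and -0.39 (SE 0.11, adjusted p = 0.00633). Ndufa4l2 therefore made up 0.134 ± 0.0499% of the level of both genes together in the flushed controls (SD, n = 4), 10.2 ± 1.96% in the libraries labelled control (SD, n = 2) and 9.69 ± 0.976% in those labelled knockout (SD, n = 4). Ndufa4l2 lies on chromosome 10 from 127514939 to 127517152, + strand.

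Cox8b, the paralog of Cox8a known from heart, skeletal muscle and brown fat, varied more. It had 0, 4, 19 and 6 counts in the flushed controls and 47, 24, 113 and 2 in the flushed knockouts, against 1322 and 215 counts in the labelled control and 683, 219, 535 and 178 in the labelled knockout libraries of the left-over artery. The left-over libraries all lay above the flushed ones, and labelled control 1 held over 6 times the count of labelled control 2. The log2 fold changes were -6.46 (SE 1.09, edgeR adjusted p = 0.00441) and -5.69 (SE 0.82, adjusted p = 0.000301). Without labelled control 1 the former was -4.60 (adjusted p = 0.0164), and without flushed control 3 the values were -7.65 and -6.82. Cox8a had 252, 247, 266 and 254 scaled FPKM in the flushed controls, 414 and 326 in the libraries labelled control and 407, 329, 367 and 331 in those labelled knockout, with no overlap, and differed by -0.61 and -0.59. Of all Cox8 RNA, Cox8b was 0.459 ± 0.553% in the flushed controls and 12.8 ± 6.36% in the libraries labelled knockout (SD, n = 4 each), and 28.9 and 7.78% in those labelled control.

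Markers of brown adipocytes, striated muscle and adipocytes were set beside Cox8b. The 7 brown adipocyte markers (Ucp1, Cidea and others) summed to 285 and 55.2 CPM in labelled control 1 and 2 of the left-over artery, to 91.2 to 151 CPM in those labelled knockout, to 1.22 to 4.28 CPM in the flushed controls and to 0.999 to 9.69 CPM in the flushed knockouts. Elovl3 and Cpt1b were at 0 in all flushed controls, and Cpt1b also in the flushed knockouts and the libraries labelled control. The library with the highest sum was the highest in Cox8b in the left-over artery (labelled control 1) and in the flushed fraction (knockout 3). The 15 striated muscle markers summed to 64.0 and 178 CPM in labelled control 1 and 2, the reverse of their order in Cox8b, to 32.3 to 51.7 CPM in the libraries labelled knockout and to 5.65 to 12.4 CPM in the flushed libraries. The 10 adipocyte markers (Adipoq and others) summed to 28.0 to 300.1 CPM in the flushed libraries, to 508 to 1678 CPM in those labelled knockout and to 3834 and 1548 CPM in labelled control 1 and 2. The part of these cells in the Cox8b difference was not tested.

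**Figure D3:**
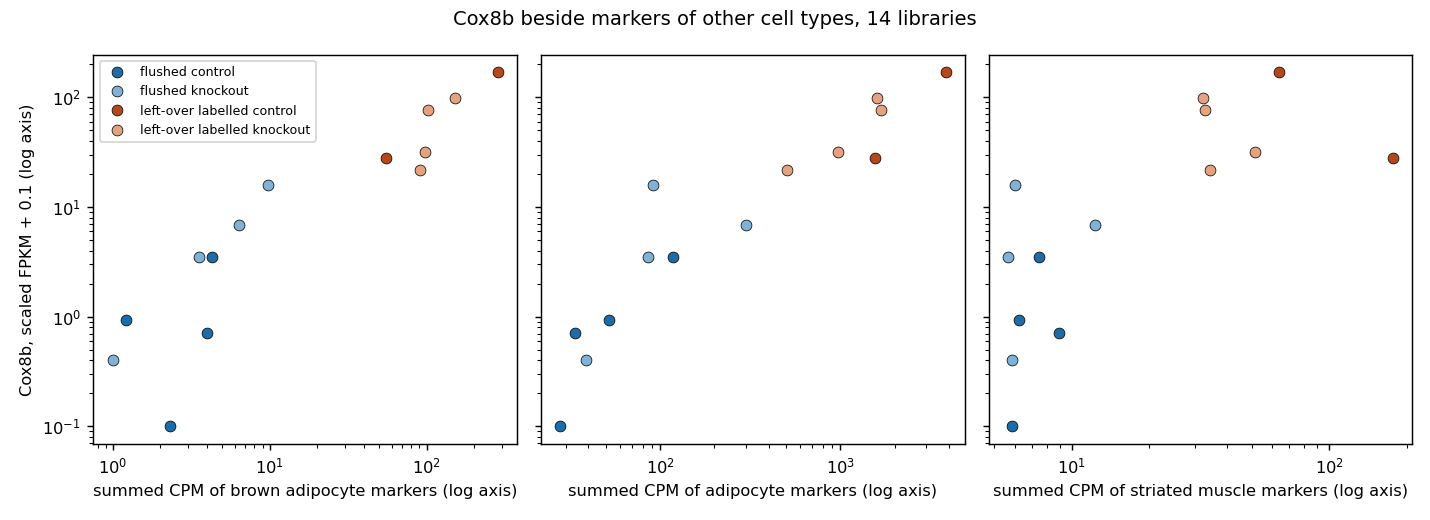
Cox8b level (scaled FPKM plus an offset of 0.1, log axis) against the summed CPM of brown adipocyte, adipocyte and striated muscle markers (log axes) in 14 libraries, coloured by group. The left-over library with most brown adipocyte marker RNA, at 285 CPM, also has most Cox8b; the library with most striated muscle marker RNA, at 178 CPM, does not.

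The remaining complex IV paralogs were scarce. Cox4i2, the paralog of Cox4i1 known from lung and induced by low oxygen, had 6, 9, 2 and 7 counts in the flushed controls, 42 and 63 in the libraries labelled control and 49, 71, 55 and 56 in those labelled knockout. It was 7.49-fold and 9.02-fold lower in the flushed controls (log2 -2.91, SE 0.49, edgeR adjusted p = 0.00073; -3.17, SE 0.40, adjusted p = 2.98e-05). Cox6b2, known from testis, had 28, 26, 35 and 29 counts against 85 and 85, and against 73, 81, 83 and 112, a difference of -1.29 (SE 0.31, edgeR adjusted p = 0.00529) and -1.44 (SE 0.25, adjusted p = 0.000342). Neither group of either gene overlapped the flushed controls. Cox6a2, the heart and skeletal muscle paralog of Cox6a1, had 0 counts in all 4 flushed controls, which allows up to 3 counts per library, and 2 to 22 counts in the left-over libraries. Cox7b2 and Cox8c had at most 17 and 32 counts in any library. These 3 genes were below the count filter between the fractions and were not tested there.

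**Figure D4:**
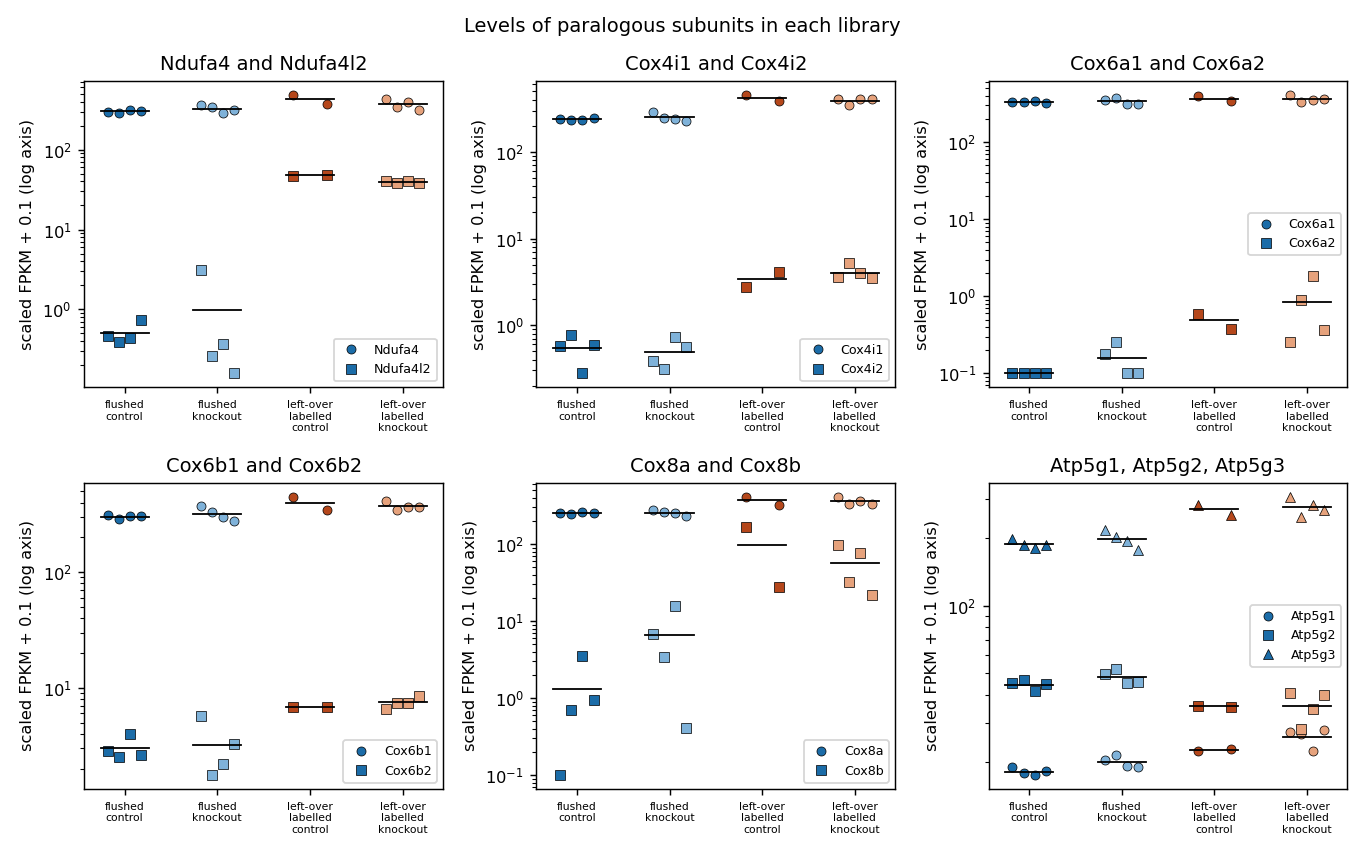
Levels of paralogous subunits in each of 14 libraries (scaled FPKM plus an offset of 0.1, log axis), by group. Points are libraries and horizontal marks are group means. Ndufa4l2, Cox4i2, Cox6b2 and Cox8b stand lower in flushed than in left-over RNA by more than their common partners do, and Atp5g2 stands higher on this scaling, though lower under library-size scaling.

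Within a library, the share of a paralog in its set needs no scaling between libraries. In a test added after the data were seen, shares were compared between the flushed controls and the left-over libraries labelled knockout by a two-sided exact permutation test, whose smallest p with 70 arrangements is 0.0286. Of 6 shares tested, those of Ndufa4l2, Cox4i2, Cox6b2, Cox7b2 and Cox8b were smaller in the flushed controls without overlap and reached it (Benjamini-Hochberg adjusted p = 0.0343). The share of Cox8c did not (adjusted p = 0.457). The result for Cox7b2 rests on 1 or 2 counts in each flushed control. Its share in left-over labelled control 1 (0.257%) lay within the range of the flushed controls (0.146 to 0.374%). The share of Cox6a2, at 0 counts in the flushed controls, was not tested. The flushed controls and the left-over libraries labelled knockout share 3 library code numbers, which the permutation did not take into account.

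The Atp5g genes, singled out after their values were seen, encode the same mature protein, the ring-forming subunit c of ATP synthase, with different import signals. Per length Atp5g3 predominated, with 198, 187, 181 and 186 scaled FPKM in the flushed controls. Its levels were 282 and 255 in the libraries labelled control and 306, 247, 281 and 266 in those labelled knockout. It was lower in the flushed controls by -0.58 (SE 0.09, edgeR adjusted p = 0.000467) and -0.64 (SE 0.09, adjusted p = 6.6e-05) on the log2 scale. Atp5g2 went the other way, with 45.1, 46.3, 41.4 and 44.8 against 35.7 and 35.3, and against 40.5, 28.0, 34.7 and 39.7. Its groups did not overlap, but its differences of 0.25 and 0.22 did not pass (edgeR adjusted p = 0.0516 and 0.112), library-size scaling turned them to -0.079 and -0.14, and a fit of all 14 libraries called the latter (0.31, adjusted p = 0.0203). As a share of the 3 genes per length, given with no test, Atp5g2 was 17.7 ± 0.589% in the flushed controls (SD, n = 4). It was 18.1 ± 0.843% in the flushed knockouts (SD, n = 4), 10.9 ± 0.554% in the libraries labelled control (SD, n = 2) and 10.6 ± 1.10% in those labelled knockout (SD, n = 4). These shares depend on the deposited lengths, which for Atp5g1 is 4715 bases against a median coding transcript of 2675.5. By counts, flushed control 1 had 1548 for Atp5g1, 589 for Atp5g2 and 2964 for Atp5g3.

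Other genes of the pathway were counted in the same 2 comparisons, labelled control first, where 65.7% and 75% of all genes were called. Of complex II, all nuclear, Sdhb, Sdhc and Sdhd were lower in the flushed controls in both (-0.34 to -0.91), while Sdha, the flavoprotein, had 0.22 (not called) and 0.52 (called higher). Of 4 further subunits or inhibitors whose symbols fall outside the rule, 3 were lower in both. Assembly factors were divided: of 38 tested, 6 were higher and 7 lower, then 9 higher and 13 lower, with medians of -0.20 and -0.12, so 13 and 22 of 38 were called. Cox17, a copper chaperone of complex IV, was higher by 1.98 and 1.34, and Uqcc2, a complex III assembly factor, was lower by -0.75 and -0.99. Of 14 mitochondrial proteins outside the chain, 1 was higher and 3 lower, then 1 higher and 5 lower, with medians of -0.02 and -0.05. Among the lower were the ADP/ATP carriers Slc25a4 and Slc25a5 (-0.93 and -1.16 against the libraries labelled control). Citrate synthase (Cs), often used as a gauge of mitochondrial content, had -0.18 and -0.08 (edgeR adjusted p = 0.323 and 0.487).

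The 13 mitochondrially encoded subunits, partners of the nuclear ones in the same complexes, were tested in all (3 higher, 2 lower, median 0.12) and in 11 (0 higher, 2 lower, median -0.26). Mitochondrial RNA was 0.176 to 0.951% of counts in each library, so these values rest on a small part of the reads. Of 13 regulators of mitochondrial genes, 6 were higher and 3 lower, then 6 higher and 4 lower, a share close to that of all genes. Nrf1, whose motif was searched above, was higher by 1.09 and 0.70, and Gabpb1, a subunit of GABP, by 1.73 and 1.59. Ppargc1a, the coactivator PGC-1 alpha, was lower by -1.61 and -1.12, and Esrrg, an orphan nuclear receptor, by -3.47 and -3.63. Of 9 targets of hypoxia, 1 was higher and 4 lower, then 1 higher and 3 lower of 8 tested. Slc2a1, the glucose transporter, was higher by 1.48 and 1.31, and Adm (adrenomedullin) lower by -4.15 and -3.60.

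The flushed knockouts were compared with the flushed controls to ask what loss of Poldip2 in the endothelium changed. No subunit passed: 0 of 76 tested had an edgeR adjusted p under 0.05 (smallest 0.790), 2 had an unadjusted p under 0.05, and DESeq2 also called 0. Of all 14800 genes 0 passed as well (0%), with 917 at an unadjusted p under 0.05. The log2 fold changes leaned to one side: 73 of 76 were positive, against 7616 of all 14800 genes. The median was 0.10 over the subunits and 0.01 over all genes. By complex it was 0.10 in complexes I, III and V and 0.07 in complex IV. The subunits share libraries and scaling, so their common sign is a single observation. It was uneven over the libraries. Of 74 subunits at 1 CPM or more in every library, 70 lay above the mean of the fraction in knockout 1 and 70 in knockout 2. It was 20 in knockout 3 and 16 in knockout 4, where the controls had 3 to 31. Of all genes at 1 CPM or more, 55.2, 51.6, 49.1 and 50.8% lay above it in knockouts 1 to 4, and 42.1 to 55.6% in the controls. Without knockout 1 the median was 0.04 and 62 of 76 were positive. Without any other single library, knockout 2 included, it was 0.08 to 0.12 with 70 to 74 positive. Without control 3 and knockout 1, the pair with most fibroblast marker RNA, the median was 0.02 and 55 of 75 were positive.

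**Figure D5:**
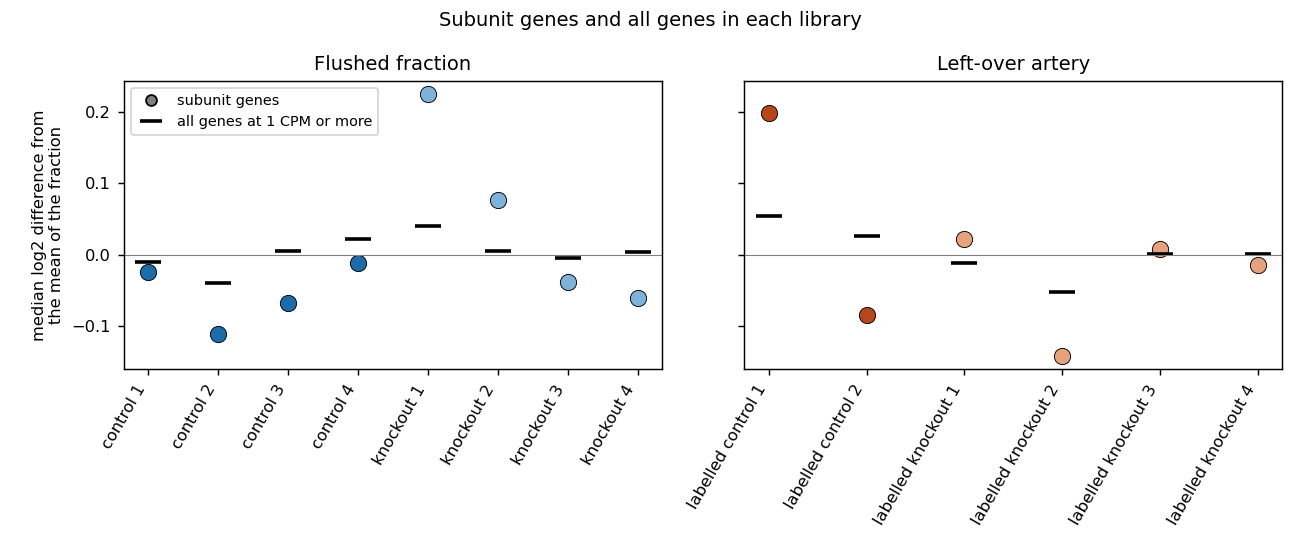
Median log2 difference of each library from the mean of its fraction, for 74 subunit genes (circles, coloured by group) and for all genes at 1 CPM or more (black bars). Flushed knockout 1 and left-over labelled control 1 stand highest at 0.22 and 0.20, and knockouts 3 and 4 of the flushed fraction lie among the controls.

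Of 9 marker lists of other cell types, knockout 1 was the highest flushed library in 6 (smooth muscle, macrophage, adipocyte, striated muscle, Schwann cell and red blood cell). Its smooth muscle markers summed to 757 CPM, against 446 to 708 CPM in the other knockouts and 309 to 489 CPM in the controls, and its adipocyte markers to 300.1 CPM, against 28.0 to 119 CPM in the other flushed libraries. Fibroblast markers were highest in control 3 at 5108 CPM, with 4001 CPM in knockout 1, and brown adipocyte markers in knockout 3 at 9.69 CPM, with 6.36 CPM in knockout 1. Their part in the common sign was not tested. The subunit with the smallest p was Ndufa5, an accessory subunit of the complex I peripheral arm. It had 50.4, 46.4, 47.5 and 46.7 scaled FPKM in the controls and 65.8, 53.3, 51.4 and 52.4 in the knockouts, without overlap (log2 0.21, SE 0.09, edgeR adjusted p = 0.790). Ndufs6, a zinc-binding subunit, had 78.2, 76.0, 72.0 and 75.2 against 98.5, 92.9, 80.5 and 78.5 (0.20, SE 0.09, edgeR adjusted p = 0.790). Atp5o, the stalk subunit that confers oligomycin sensitivity, differed by 0.15 and Ndufa12 by 0.18 (edgeR adjusted p = 0.807 and 0.811). Cox8b had the largest difference, 2.46 (SE 1.14, edgeR adjusted p = 0.811), which was 1.53 without knockout 3. The 11 mitochondrially encoded subunits tested were negative in 11 of 11, with a median of -0.44, and 0 passed.

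In the left-over artery, libraries labelled knockout were compared with those labelled control, a direction that depends on the labels. Again 0 of 81 subunits passed (smallest edgeR adjusted p = 0.430; 2 at an unadjusted p under 0.05; 0 by DESeq2), where 162 of 20442 genes did (0.792%, 0.421% as higher and 0.372% as lower). The median log2 fold change was -0.06 over the subunits and 0.03 over all genes, with 53 of 81 subunits and 9428 of 20442 genes negative. The sign depended on single libraries. In labelled control 1, 70 of 74 subunits lay above the mean of the fraction. In labelled control 2 it was 12 and in labelled knockout 2 it was 7. Of all genes at 1 CPM or more, 58.3, 54.5 and 43.1% lay above it in these libraries, in the same order. Without labelled control 1 the median was 0.08 and 62 of 81 were positive. Without labelled knockout 2 the median was -0.002 and 39 of 79 were positive. Atp5sl had the smallest p, with the levels given above (-0.47, SE 0.20, edgeR adjusted p = 0.430). Uqcrfs1, the Rieske iron-sulfur protein of complex III, had 113 and 70.5 scaled FPKM in the libraries labelled control and 78.3, 58.3, 74.0 and 59.9 in those labelled knockout. These overlapped (-0.43, SE 0.20, edgeR adjusted p = 0.472). Ndufb8 differed by -0.26, Ndufs1 by -0.37 and Ndufa4l2 by -0.26 (edgeR adjusted p = 0.580, 0.591 and 0.612).

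The knockout effects of the fractions were compared directly by an interaction over all 14 libraries. It called 0 of 81 subunits (smallest edgeR adjusted p = 0.186; 5 at an unadjusted p under 0.05; 0 by DESeq2) and 55 of 21464 genes (0.256%). The endothelial effect was the higher in 71 of 81 subunits and in 9759 of all 21464 genes. The median was 0.20 over the subunits and -0.06 over all genes. Without left-over labelled control 1 the subunits' median was 0.06. The smallest p belonged to Atp5sl (0.59, SE 0.18, edgeR adjusted p = 0.186), followed by Ndufb8 (0.43), Ndufa5 (0.40), Atp5k (0.55) and Uqcrfs1 (0.44). With the left-over labels exchanged, the interaction would compare the endothelial effect with the opposite left-over effect.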

How the data were processed

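RNA-seq was measured in 14 libraries. The authors deposited 1 table with raw read counts per gene, FPKM, mean FPKM per group, log2 fold changes and p-values, with gene lengths and coordinates. Per the submitters' processing notes, TopHat, STAR 2.5, STAR-Fusion, HTSeq 0.6.1, DESeq2 and edgeR 3.16.5 were used, with no role given, and the build mm9 is named. The deposited starts of 80 of the 81 genes lie within 5 kb of those of GENCODE M21 on GRCm38. Deposited FPKM equalled counts over length and column total in 100% of nonzero values (tolerance 0.001). No 2 libraries agreed within sampling noise (chi-square per degree of freedom at least 8.79 over 91 pairs). The limit a count of 0 allows (3 counts, 95% confidence) corresponds to 0.129 to 0.1997 CPM by library size alone, counting error only.

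The counts were fitted here with edgeR 4.0.16 (R 4.3.3, limma 3.58.1, statmod 1.5.0): filterByExpr (minimum count 10, total 15), TMM, robust quasi-likelihood F tests, two-sided, Benjamini-Hochberg adjustment over all genes, called under 0.05. Each comparison used its own groups and the interaction all 14 libraries. The fits were tested on simulated data. Of 100 genes with a true log2 change of 1, 91% were recovered in the flushed knockout comparison and 73% in the left-over one. Between the fractions 74% and 89% were recovered, and in the interaction 42%. The simulation gave every gene the same spread, took only genes above a mean count cut and changed 200 of them. These shares therefore do not measure the power reached in these libraries. Smaller changes were not simulated. DESeq2 1.42.0 was an alternative, with other scaling, no filter, blocks by repeat or code number and omissions. Exact tests used SciPy.

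Named were the paralog sets, the 5 highest and 5 lowest called members per comparison (or the 5 smallest p) and the highest and lowest of each complex. The members and lists were chosen with earlier results of these data known. Repeat numbers did not pair the libraries (correlations of deviations from -0.33 to 0.40). For the 3 shared code numbers the correlations were 0.157, 0.159 and -0.172. The 3 rows described as pseudogenes of these subunits held 0.0171% of the subunits' counts, and the handling of multiply mapped reads was not stated.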

Additional observations from a re-analysis of the deposited data

Results flagged for a closer look

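Among the named genes, 6 of 102 groups of 4 libraries held a library far from the other 3 (Dixon's criterion at 95%), and 14 of 243 over all subunits. Chance gives about 1 in 20. Flushed knockout 1 was the high library for Ndufa4l2 (3.04 scaled FPKM, others 0.0578 to 0.264), Ndufa5 (65.8, others 51.4 to 53.3) and Atp5o (104.6, others 89.1 to 91.3). Flushed control 4 was high for Ndufb8 (26.2, others 23.6 to 23.8). Flushed control 2 was low for Cox7b (56.7, others 63.0 to 63.9). The left-over library labelled knockout 2 was low for Cox4i1 (350.4 scaled FPKM, others 403 to 409). Flushed knockout 1 accounted for 4 of the 14.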

How the results depend on the processing

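Between flushed and left-over RNA, the count of subunits called stayed within 1.5 times its value under each alternative run: 57 to 76 against the labelled control libraries and 53 to 74 against those labelled knockout, and 52 to 70 and 56 to 66 when each library was left out in turn. Of all genes, 11079 to 12568 of 18484 to 31872 tested and 12101 to 16051 of 17881 to 32822 were called in the former runs. With a library left out it was 9098 to 12744 of 18209 to 20130 and 12756 to 14157 of 18024 to 19212. Leaving out a library gave 0 to 0 subunits in both knockout comparisons and the interaction. Scaling by library size alone split all calls 4650 higher to 7597 lower and 4748 to 8644. A block by repeat number, which did not pair the libraries, called 1 subunit in the left-over knockout comparison (Ndufs1, -0.44, edgeR adjusted p = 0.0493; 2015 genes against 162), 0 in the flushed one and in the interaction, and 62 and 65 between the fractions. A block by library code number on 6 libraries gave 57, and 60 without the block, an alternative chosen after seeing the data. In the flushed knockout comparison DESeq2 called 67 genes, 0 of them subunits.

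Directions were followed for the named genes only, 23 in each fraction comparison and 5 in each other comparison. They turned in these cases. Over single omissions, Ndufs1 between the left-over groups ranged from -0.68 to 0.013. Against the labelled control libraries, Cox7a2l ranged from -0.29 to 0.030 and Atp5b from -0.48 to 0.032, and against those labelled knockout Cox7a2l ranged from -0.12 to 0.033. Library-size scaling gave -0.20 for Atp5s and -0.079 for Atp5g2 against the former and -0.14 for Atp5g2 against the latter, where Cox7a2l was 0.049 with no filter and 0.023 with all 14 libraries fitted together. Over all subunits, leaving out labelled control 1 moved the positive ones from 28 to 62 of 81 between the left-over groups. None of the named genes that turned was called in that comparison as reported, and the other subunits were not checked. The cause was not tested. Of the named genes' other values, 11 and 40 lost their call in the fraction comparisons, Atp5b, Cox6a1 and Atp5s most often, and 4 and 2 gained one (Cox6a1, Cox7a2l and Atp5b under library-size scaling, Atp5b without labelled control 2, Atp5g2 with all 14 libraries).

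Limits are 2 libraries labelled control in the left-over artery, labels there in doubt, low counts of Cox4i2, Cox6a2, Cox7b2 and Cox8c, and cell types that change with the fraction.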
